A study of Mus musculus with 8 samples.

Results

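The genes described here are the D cyclins, the kinases they activate and the inhibitors of those kinases, 10 genes in all: Ccnd1, Ccnd2, Ccnd3, Cdk4, Cdk6, Cdkn1a, Cdkn1b, Cdkn1c, Cdkn2c and Cdkn2d. They were chosen by name, and their probes were taken by RefSeq accession, which gave 14 of the 55681 non-control probes on each array. All 10 genes were among the 14106 genes tested, and the probe that stood for each was well above background on all 8 arrays. The RNA came from granulocyte progenitors (GPs), bone marrow cells on the way to becoming granulocytes, that were sorted by whether they carried Flt3, a cytokine receptor of early progenitors. The 4 groups, of 2 arrays each, were Flt3+ GPs and Flt3- GPs of wild-type (WT) mice, and Flt3+ GPs and Flt3- GPs of mice labelled Irf8KO, described as deficient in the transcription factor Irf8. All cells were primary and untreated, and the arrays of a group came from experiments 1 and 2. The age, strain and number of the mice and the deleted stretch of Irf8 are not given in the sources used here.

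D cyclins are made in response to growth factors, bind Cdk4 or Cdk6, and the resulting kinases phosphorylate the retinoblastoma protein and its relatives. Phosphorylated pocket proteins release E2F factors, which switch on the genes of S phase. The INK4 inhibitors, here Cdkn2c and Cdkn2d, bind Cdk4 and Cdk6 alone, while the Cip/Kip inhibitors Cdkn1a, Cdkn1b and Cdkn1c bind a wider range of cyclin-kinase complexes. In blood formation these genes are known for setting the balance between stem and progenitor cell division and the cell cycle exit that comes with maturation.

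Values below are log2 intensities relative to the array's own 75th percentile, so that 0 is the level of that percentile, and in each pair the array of experiment 1 comes first. Differences are log2 differences with their standard error (SE) from a limma fit over all genes and arrays. Called means an adjusted p (Benjamini-Hochberg over 14106 genes) under 0.05. The intensity that makes the 75th percentile ran from 321 to 634 over the arrays. Spots well above background made up 54.9 to 60.1%, and none was saturated. All 8 arrays shared 1 slide on which row 1 held WT and row 2 held Irf8KO, with Flt3+ in columns 1 and 2 and Flt3- in 3 and 4. Slide position and group cannot be told apart. The Irf8 probe read 5.80 and 5.87 in WT Flt3+ GPs and 6.67 and 6.67 in Irf8KO Flt3+ GPs, a difference of 0.84 ± 0.051 (SE) upward with the Irf8KO label (adjusted p = 0.000226). On the Flt3- arrays it read 4.85 and 4.88 in WT and 5.64 and 5.53 in Irf8KO. Where this probe lies relative to the deletion is not given, so it does not check the genotype labels, and every genotype direction below rests on those labels. The Flt3 transcript, by whose protein the cells were sorted, was higher in Flt3+ than Flt3- GPs by 4.54 in WT and 3.60 in Irf8KO. Between the Flt3- groups it was 1.02 higher with the Irf8KO label (adjusted p = 7.84e-05). All 10 granulocyte progenitor markers chosen, among them Elane, Mpo and Cebpe, were well above background on at least 1 array of every group.

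The promoters of Cdkn1a, the inhibitor with the largest called genotype difference, and of Cdk4, the gene whose group means lay closest together, are shown first. RefSeq promoter windows (build GRCm38.p6), running from 250 bases before to 50 bases after a start site, were given for 7 of the 10 genes, 10 windows in all. None was given for Ccnd1, Ccnd2 and Cdkn1c, so their promoters were not searched. The 250 bases upstream of both Cdkn1a starts and of the Cdk4 start follow, 5′ to 3′ on the plus strand. Capitals mark 2 copies of ACATGT with 4 bases between them at the upstream Cdkn1a start and CACGTG in Cdk4, and the second Cdkn1a start holds no searched motif.
Cdkn1a, upstream start, chr17:29090729-29090978: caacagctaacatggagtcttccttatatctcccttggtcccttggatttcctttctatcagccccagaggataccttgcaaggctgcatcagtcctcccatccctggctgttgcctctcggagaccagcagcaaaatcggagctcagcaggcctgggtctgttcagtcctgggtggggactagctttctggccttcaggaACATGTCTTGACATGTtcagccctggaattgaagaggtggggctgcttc
Cdkn1a, downstream start, chr17:29093519-29093768: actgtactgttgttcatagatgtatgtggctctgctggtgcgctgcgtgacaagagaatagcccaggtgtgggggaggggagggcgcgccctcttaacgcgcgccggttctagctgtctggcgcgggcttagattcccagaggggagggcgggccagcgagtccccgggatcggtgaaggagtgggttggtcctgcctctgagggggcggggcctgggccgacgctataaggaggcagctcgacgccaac
Cdk4, chr10:127063285-127063534: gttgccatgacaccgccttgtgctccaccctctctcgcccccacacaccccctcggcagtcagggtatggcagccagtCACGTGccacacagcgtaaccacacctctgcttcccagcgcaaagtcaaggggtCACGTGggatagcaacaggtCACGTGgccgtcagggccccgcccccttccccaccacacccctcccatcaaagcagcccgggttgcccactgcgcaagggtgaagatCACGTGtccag

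The capitals in the upstream Cdkn1a window span bases -49 to -34, counted with the start site as 0. They are 16 bases of the paired CATG form that p53, the stress-activated factor known for inducing Cdkn1a, is known to bind. This motif was chosen after the sequences had been read, and 4 of all 32851 windows of the same length (0.0122%) hold it on either strand. Cdk4 holds CACGTG, the E-box form bound by Myc and related factors, 4 times, its first bases at -172, -118, -98 and -11. At least 4 copies occur in 8 of all windows (0.0244%), and at least 1 copy in 7.15%. A single CACGTG lay at -220 to -215 in the Cdk6 window and at 34 to 39 in a Cdkn2c window. Motifs of interferon regulatory factors were searched as GAAA followed by GAAA after 2 or 3 bases (3.44 and 2.75% of all windows). The composite form shared with ETS factors was searched as GGAA followed by GAAA after 2 bases (2.72%). No window of the 7 genes that have one holds the letters of any of them. The E2F motifs TTTCCCGC and TTTGGCGC (1.07 and 0.514% of windows) and the C/EBP motif TTGCGCAA (0.183%) were also in none of the 10 windows. All motifs were searched on both strands. A match of letters is not a measured binding site. The file does not pair the windows with transcripts.

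**Figure D1:**
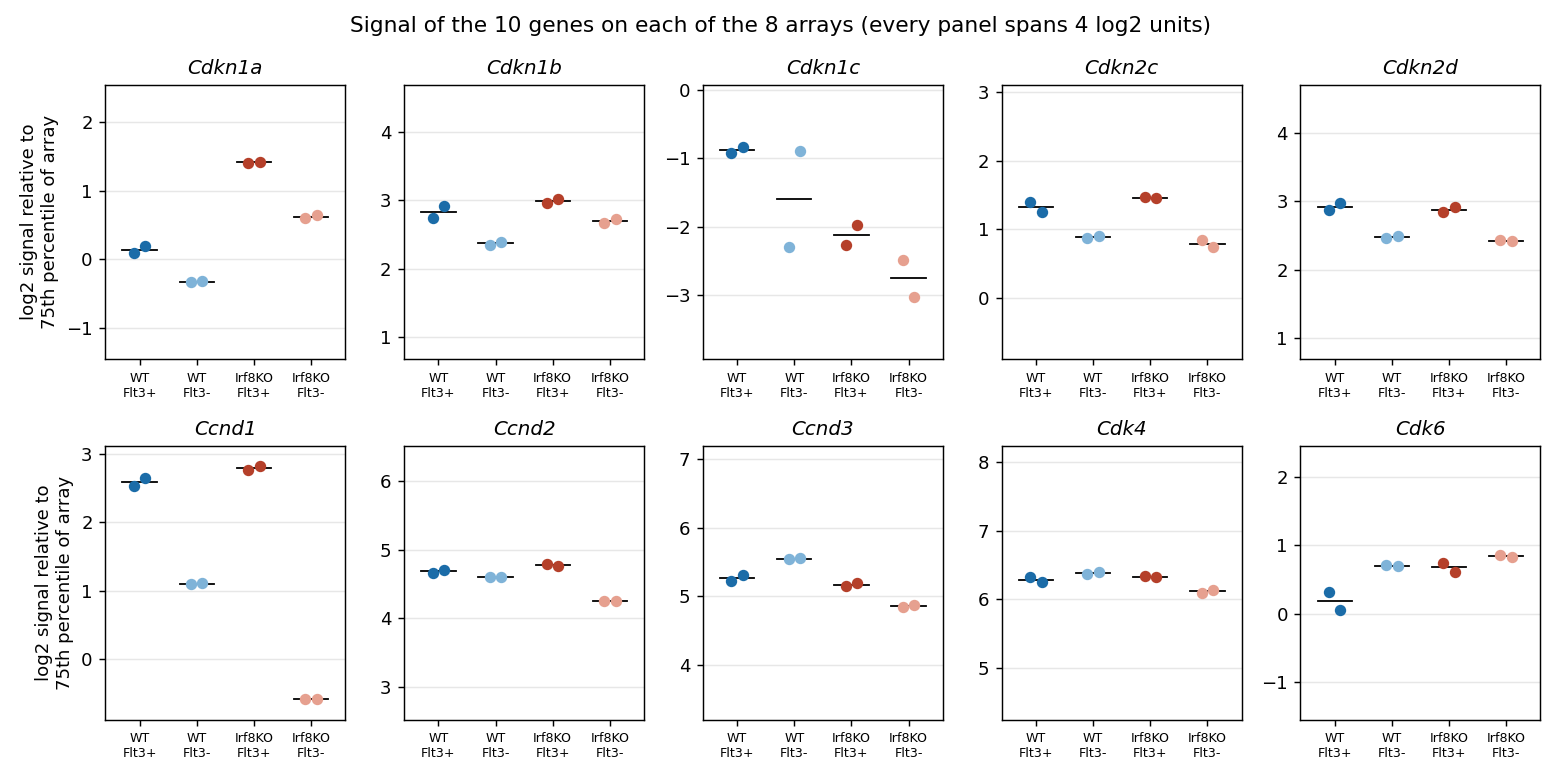
Log2 intensity relative to the array's 75th percentile (vertical axis) for the 10 genes, with 1 point per array in the 4 groups and a bar at the group mean. Ccnd1 runs from -0.58 on an Irf8KO Flt3- array to 2.82 on an Irf8KO Flt3+ array, and Cdkn1c is the gene whose WT Flt3- points lie far apart, at -2.29 and -0.89.

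Among the D cyclins, Ccnd1 moved most. It encodes cyclin D1, and its probe read 2.53 and 2.65 in WT Flt3+ GPs, 1.10 and 1.11 in WT Flt3- GPs, 2.76 and 2.82 in Irf8KO Flt3+ GPs, and -0.57 and -0.58 in Irf8KO Flt3- GPs. Both Flt3+ groups were high, WT Flt3- GPs were lower, Irf8KO Flt3- GPs were lowest, and no 2 groups overlapped. The fall from Flt3+ to Flt3- was 2.80-fold in WT (difference 1.48 ± 0.052 SE, adjusted p = 7.4e-06) and 10.3-fold in Irf8KO (3.37 ± 0.052, adjusted p = 9.83e-07). In Flt3- GPs the arrays labelled Irf8KO were 3.21-fold below WT (-1.68 ± 0.052, adjusted p = 4.71e-05), the 104th most negative of all 14106 genotype differences there. In Flt3+ GPs the genotype difference was 0.20 ± 0.052 in the other direction (adjusted p = 0.0359), and that call was lost without any 1 of 7 arrays, all but the WT Flt3+ array of experiment 2 (adjusted p 0.0258 to 0.168 over the 8 omissions). It was also lost with normexp background correction (0.16, adjusted p = 0.138), with no filter on dim probes (0.087), in a fit over probes (0.0677) and in a fit of these 2 groups alone (0.12). The range of its 4 group means, 3.37, was exceeded by 2.99% of all genes.

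Ccnd2 encodes cyclin D2, which is widely used in blood progenitors and lymphocytes. It read 4.66 and 4.71 in WT Flt3+, 4.61 and 4.61 in WT Flt3-, 4.79 and 4.76 in Irf8KO Flt3+, and 4.25 and 4.26 in Irf8KO Flt3- GPs. Irf8KO Flt3- GPs alone stood low, and the other 3 groups ran from 4.61 to 4.79. Ccnd2 was lower in Irf8KO than WT Flt3- GPs by 0.36 ± 0.039 (SE, adjusted p = 0.00137), a difference of -0.22 with quantile normalization of the arrays. In Flt3+ GPs the genotype difference was 0.09, with a 95% confidence interval (CI) of -0.01 to 0.19, and was not called. Within WT the difference between populations was 0.07 (CI -0.03 to 0.17, adjusted p = 0.162), but with quantile normalization it was 0.36 and called (adjusted p = 0.00049).

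Ccnd3 encodes cyclin D3, the D cyclin that T cell precursors and red cell precursors depend on. Its brighter probe read 5.23 and 5.32 in WT Flt3+, 5.54 and 5.56 in WT Flt3-, 5.15 and 5.19 in Irf8KO Flt3+, and 4.84 and 4.87 in Irf8KO Flt3- GPs. WT Flt3- GPs were the highest group and Irf8KO Flt3- GPs the lowest, and the groups did not overlap. Ccnd3 was 1.62-fold lower in Irf8KO than WT Flt3- GPs (-0.69 ± 0.047, adjusted p = 0.00035). Its second probe gave -0.58 ± 0.074 for the same comparison. In Flt3+ GPs the genotype difference was -0.11 (CI -0.22 to 0.01) and 0.04 by the second probe, not called, but it was -0.24 and called with quantile normalization (adjusted p = 0.0107). Within WT it was lower in Flt3+ than Flt3- GPs by 0.27 (adjusted p = 0.00337), but this direction turned to 0.09 (adjusted p = 0.123) with quantile normalization.

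Cdk4 varied little. It encodes the catalytic partner of all D cyclins and read 6.32 and 6.25 in WT Flt3+, 6.37 and 6.39 in WT Flt3-, 6.34 and 6.32 in Irf8KO Flt3+, and 6.09 and 6.14 in Irf8KO Flt3- GPs. The Irf8KO Flt3- pair lay lowest, and the arrays of the other groups ran from 6.25 to 6.39. Its 4 group means spanned 0.27, a range that 79.5% of all genes exceeded. With the Irf8KO label it was at -0.27 ± 0.043 (SE) in Flt3- GPs (adjusted p = 0.00494), and at -0.15 with quantile normalization (adjusted p = 0.0428). The other 2 Cdk4 probes gave -0.23 and -0.29 there. The genotype difference in Flt3+ GPs was 0.05 (CI -0.06 to 0.15), and -0.07 with quantile normalization. Within WT the difference was -0.10 (CI -0.20 to 0.01) and not called, and it turned to 0.29 with quantile normalization (adjusted p = 0.00306), while the mean of its probes gave -0.14 and a call (adjusted p = 0.0274).

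Cdk6, the related kinase that is prominent in blood cells, differed in its order of groups. It read 0.31 and 0.05 in WT Flt3+, 0.71 and 0.69 in WT Flt3-, 0.74 and 0.61 in Irf8KO Flt3+, and 0.85 and 0.83 in Irf8KO Flt3- GPs. WT Flt3+ GPs were the low group, Irf8KO Flt3- GPs the high group, and WT Flt3- and Irf8KO Flt3+ GPs overlapped. Within WT, Cdk6 was lower in Flt3+ than in Flt3- GPs by 0.52 ± 0.094 (SE, adjusted p = 0.00407). Among Flt3+ GPs it was 1.41-fold higher on the arrays labelled Irf8KO (0.50 ± 0.094, adjusted p = 0.0131). That call was lost without the Irf8KO Flt3+ array of experiment 1 (adjusted p = 0.0705) and in a fit of these 2 groups alone (adjusted p = 0.0589). In Flt3- GPs the genotype difference was 0.14 (CI -0.09 to 0.37). The difference of these differences, 0.36, was not called (adjusted p = 0.0901), except without the WT Flt3+ array of experiment 1 (0.49, adjusted p = 0.023).

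Of the Cip/Kip inhibitors, Cdkn1a was higher on the arrays labelled Irf8KO in both populations. It encodes p21, which stops cyclin-dependent kinases after DNA damage and during differentiation. Its main probe was spotted 10 times per array (9 usable spots on the WT Flt3- array of experiment 2), and the SD between its spots was 0.034 to 0.073. It read 0.09 and 0.19 in WT Flt3+, -0.33 and -0.32 in WT Flt3-, 1.41 and 1.42 in Irf8KO Flt3+, and 0.60 and 0.64 in Irf8KO Flt3- GPs. All 4 Irf8KO arrays lay above all 4 WT arrays, and within each genotype Flt3+ lay above Flt3-. With the Irf8KO label it was 2.42-fold higher in Flt3+ GPs (1.27 ± 0.050, adjusted p = 4.95e-05) and 1.92-fold higher in Flt3- GPs (0.94 ± 0.050, adjusted p = 0.000191). Flt3+ exceeded Flt3- GPs by 0.46 ± 0.050 in WT and 0.79 ± 0.050 in Irf8KO (adjusted p = 0.000494 and 7.75e-05). Larger genotype differences, in size, were found for 3.18 and 4.71% of all genes in Flt3+ and Flt3- GPs. On none of the 8 arrays was a second probe, for transcript NM_001111099, well above background.

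Cdkn1b encodes p27, the inhibitor that accumulates in resting cells. It read 2.74 and 2.92 in WT Flt3+, 2.35 and 2.39 in WT Flt3-, 2.95 and 3.01 in Irf8KO Flt3+, and 2.67 and 2.73 in Irf8KO Flt3- GPs. WT Flt3- GPs were low and did not overlap with any group, while WT Flt3+ values lay just above those of Irf8KO Flt3- GPs. It was higher in Flt3+ GPs by 0.46 ± 0.070 (SE) in WT (adjusted p = 0.00218). Within Irf8KO the difference was 0.28 (adjusted p = 0.0195), which was lost without any 1 of the 4 Irf8KO arrays (adjusted p 0.0557 to 0.0977). In Flt3- GPs it was 0.33 higher with the Irf8KO label (adjusted p = 0.0129), a call lost without the WT array of experiment 1 (0.0685) or the Irf8KO array of experiment 2 (0.0629). In Flt3+ GPs the difference was 0.16 (CI -0.02 to 0.33), called only without the WT Flt3+ array of experiment 2 (adjusted p = 0.0387).

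Cdkn1c encodes p57, the Cip/Kip inhibitor known for keeping blood stem cells quiescent. It read -0.92 and -0.84 in WT Flt3+, -2.29 and -0.89 in WT Flt3-, -2.26 and -1.97 in Irf8KO Flt3+, and -2.48 and -3.02 in Irf8KO Flt3- GPs. The WT Flt3- pair spanned 1 array near the WT Flt3+ level and 1 near the Irf8KO Flt3+ level, so the SE was 0.45, the widest of the 10 genes. The genotype differences, -1.24 in Flt3+ (CI -2.35 to -0.12, adjusted p = 0.0932) and -1.16 in Flt3- GPs (CI -2.28 to -0.04, adjusted p = 0.088), were not called. The Flt3+ values of WT and Irf8KO did not overlap, and the -1.24 was called in a fit of those 2 groups alone (adjusted p = 0.0093) and without either WT Flt3- array (0.0151), whose spread then did not enter the fit. With normexp it was -0.78 (adjusted p = 0.0337). Without the low WT Flt3- array of experiment 1 the genotype difference in Flt3- GPs was -1.86 (adjusted p = 0.00877), and without the array of experiment 2 it was -0.46. The WT population difference of 0.72 (adjusted p = 0.218) likewise ran from 0.02 to 1.42 by which of these arrays was left out, and was called at 1.42 (adjusted p = 0.00782).

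The INK4 inhibitors were higher in Flt3+ GPs of both genotypes, and their genotype differences were not called. Cdkn2c encodes p18 and read 1.39 and 1.25 in WT Flt3+, 0.87 and 0.90 in WT Flt3-, 1.47 and 1.45 in Irf8KO Flt3+, and 0.84 and 0.74 in Irf8KO Flt3- GPs. Cdkn2d encodes p19 of the INK4 family and read 2.87 and 2.98, 2.47 and 2.50, 2.84 and 2.92, and 2.43 and 2.42 in the same groups. For both genes all 4 Flt3+ arrays lay above all 4 Flt3- arrays. The share of all genes that separate in this way was not counted. Called higher in Flt3+ GPs were 22.6% of all genes in WT and 22.1% in Irf8KO. Cdkn2c was higher in Flt3+ GPs by 0.44 ± 0.063 (SE) in WT and 0.67 ± 0.063 in Irf8KO (adjusted p = 0.00162 and 0.000416). Cdkn2d was higher by 0.44 ± 0.054 and 0.45 ± 0.054 (adjusted p = 0.000855 and 0.00114). The genotype differences were 0.14 (CI -0.02 to 0.29) and -0.09 (CI -0.25 to 0.07) for Cdkn2c in Flt3+ and Flt3- GPs, and -0.05 (CI -0.18 to 0.08) and -0.06 (CI -0.19 to 0.07) for Cdkn2d.

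**Figure D2:**
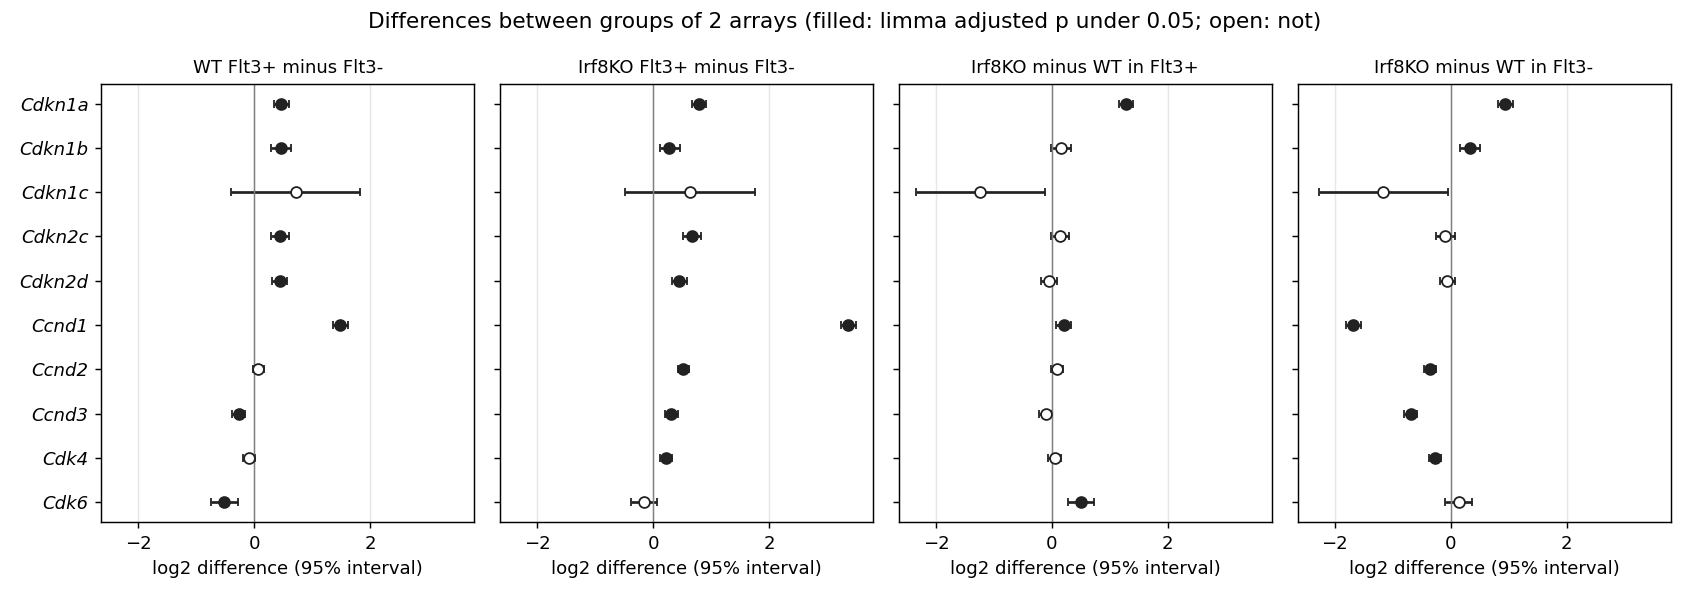
Log2 differences (horizontal axis, bars 95% CI) of the 10 genes in the 4 pairwise comparisons, with called differences filled. Ccnd1 reaches 3.37 between the Irf8KO populations and -1.68 between genotypes in Flt3- GPs. In the WT panel the directions of Ccnd3 (-0.27) and Cdk4 (-0.10) turn with quantile normalization.

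Set side by side, Flt3+ and Flt3- GPs of WT mice differed in 7 of the 10 genes (5 higher and 2 lower in Flt3+). Of all genes, 61.9% were called in this comparison, 22.6% higher and 39.2% lower. Higher were Ccnd1, Cdkn1a, Cdkn1b, Cdkn2c and Cdkn2d, and lower were Cdk6 and Ccnd3, whose direction turned with quantile normalization. The median of the 10 was 0.44 against -0.115 for all genes. With quantile normalization the median of all genes was -0.013 and the calls split 4198 higher to 4122 lower, in place of 3193 to 5534. Relative to the median gene, Ccnd1 was at 1.60, Ccnd3 at -0.16 and Cdk4 at 0.02. Within Irf8KO, 8 of 10 were called (8 higher in Flt3+, none lower), where 45.8% of all genes were called, 22.1% higher and 23.6% lower. The median of the 10 was 0.49 against -0.03. The 2 not called were Cdk6 (-0.16) and Cdkn1c (0.64). Ccnd2 (0.52), Ccnd3 (0.31) and Cdk4 (0.22) were higher in Irf8KO Flt3+ GPs, with adjusted p of 0.000165, 0.00268 and 0.00873. In the limma fit over probes, the second Ccnd3 probe gave 0.24 and was not called (adjusted p = 0.0542). The other 2 Cdk4 probes gave 0.11 and 0.15 and were not called either (adjusted p = 0.147 and 0.0893). The Cdk4 value was 0.37 with quantile normalization, and its call was lost without the Irf8KO Flt3+ array of experiment 1 (adjusted p = 0.0519). The 2 population comparisons share no arrays, although both enter 1 estimate of the spread.

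Between genotypes, 3 of 10 were called in Flt3+ GPs, all higher with the Irf8KO label (Cdkn1a, Cdk6 and Ccnd1), where 29.0% of all genes were called, 16.5% higher and 12.5% lower. The number called among the 10 ran from 1 to 4 when single arrays were left out. The median of the 10 was 0.11 against 0.039 for all genes, whose calls split 2322 higher to 1765 lower, and 1990 to 2174 with quantile normalization. In Flt3- GPs 6 of 10 were called, Cdkn1a and Cdkn1b higher and Ccnd1, Ccnd2, Ccnd3 and Cdk4 lower. Of all genes 43.6% were called there, 16.5% higher and 27.2% lower. The median of the 10 was -0.18 against -0.035. Not called there were Cdk6 (0.14), Cdkn1c (-1.16), Cdkn2c (-0.09) and Cdkn2d (-0.06).

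**Figure D3:**
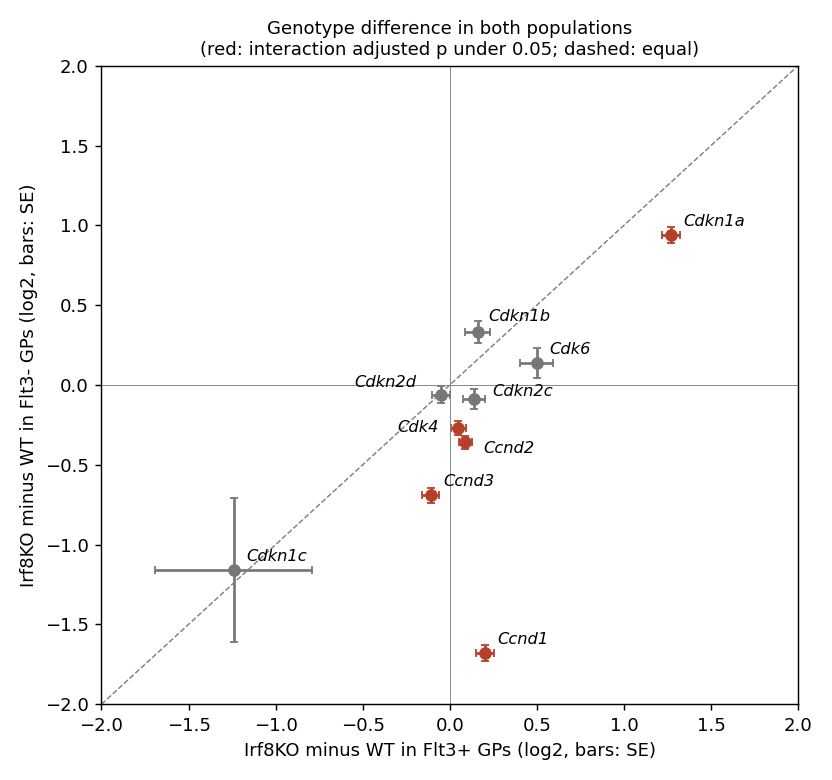
Irf8KO minus WT log2 difference in Flt3+ GPs (horizontal axis) against the same in Flt3- GPs (vertical axis), with SE bars; the dashed line marks equal differences and red marks a called difference between them. Ccnd1, Ccnd2, Ccnd3 and Cdk4 lie below the line near 0.20, 0.09, -0.11 and 0.05 on the horizontal axis, and Cdkn1a lies at 1.27 and 0.94. The Cdk4 call is lost with quantile normalization, which also turns its horizontal value to -0.07.

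The difference between the genotype differences (Flt3+ minus Flt3-) was tested in the same fit. It was called for 5 of the 10 genes, all positive, where 30.9% of all genes were called, 21.4% positive and 9.45% negative. It was 1.88 ± 0.074 (SE) for Ccnd1 (adjusted p = 0.000281), 0.59 ± 0.066 for Ccnd3 (0.00345), 0.45 ± 0.056 for Ccnd2 (0.0042), 0.33 ± 0.070 for Cdkn1a (0.019) and 0.31 ± 0.061 for Cdk4 (0.0148). With quantile normalization Ccnd3 was at 0.28 and Ccnd2 at 0.23, both still called, and Cdk4 was at 0.08 (adjusted p = 0.41). Cdkn1b, at -0.17 and not called, was then at -0.29 (adjusted p = 0.0494). For Cdkn1a the adjusted p rose to between 0.0566 and 0.0693 without either WT Flt3- array, either Irf8KO Flt3+ array or the Irf8KO Flt3- array of experiment 1, and was 0.0525 with no filter on dim probes. For Cdk4 it rose to between 0.0508 and 0.0616 without either WT Flt3- or either Irf8KO Flt3+ array. Over all genes the calls split 3021 positive to 1333 negative, and 1976 to 1869 with quantile normalization.

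The rest of the pathway was described from 7 lists with 103 genes, 94 of them tested, whose counts stand beside the shares of all genes given above. In the G1 cyclin and kinase list (8 tested), 6 genes were lower in Flt3+ than Flt3- GPs of WT mice and none higher, and with quantile normalization 4 were lower and 1 higher. With the Irf8KO label 5 of 8 fell in Flt3- GPs, and 2 of 8 rose in Flt3+ GPs. Ccne1, cyclin E1, which drives Cdk2 at the start of S phase, was 0.92 ± 0.052 (SE) lower with the Irf8KO label in Flt3- GPs (adjusted p = 0.000227) and -0.02 in Flt3+ GPs (0.802). Ccna2, cyclin A2 of S and G2 phase, was 0.61 lower there and 0.32 higher in Flt3+ GPs (adjusted p = 0.000542 and 0.00686). The list's median was -0.30 in Flt3- GPs, against -0.035 for all genes.

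Pocket proteins and E2F factors, the direct targets of these kinases and their partners, showed a like split of counts. With the Irf8KO label 11 of 18 fell and 2 rose in Flt3- GPs, and 2 fell and 3 rose in Flt3+ GPs, with medians of -0.35 and 0.02 (10 fell and 1 rose, and 3 fell and 2 rose, with quantile normalization). E2f7, a repressor of E2F targets, fell by 1.13 ± 0.080 (SE) in Flt3- GPs (adjusted p = 0.000403), and Mybl2, an activator of later cell cycle genes, fell by 0.85 ± 0.048 (adjusted p = 0.000227). E2f2, an activating E2F, was higher in Flt3+ than Flt3- GPs, by 0.89 in WT and 1.53 in Irf8KO (adjusted p = 1.76e-05 and 3.57e-06). Of the other inhibitory genes 3 of 5 were tested, since the INK4 genes Cdkn2a and Cdkn2b were not well above background on both arrays of any group. Cdkn3, a phosphatase that acts on Cdk2, was higher with the Irf8KO label by 0.41 in Flt3+ and lower by 0.56 in Flt3- GPs (adjusted p = 0.0107 and 0.00217).

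Genes for the turnover of D cyclins and inhibitors (12 tested) were lower in Flt3+ GPs of WT mice in 7 cases and higher in 1, but 4 were lower and 4 higher with quantile normalization. Cdt1, a replication licensing factor degraded by the same ligases, was at -0.51 in that comparison (adjusted p = 0.000315), and at -0.15 with quantile normalization. Ddb1, an adaptor of the Cul4 ligase, was at -0.50 (adjusted p = 0.000133), and at -0.12 with quantile normalization. With the Irf8KO label 5 fell and 1 rose in Flt3- GPs, and 1 fell and 3 rose in Flt3+ GPs, where 3 fell and 1 rose with quantile normalization. Cks1b, which helps the Skp2 ligase recognise p27, was 0.34 ± 0.066 (SE) higher in Irf8KO Flt3+ GPs (adjusted p = 0.014), and 0.22 higher with quantile normalization.

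The p53 list (18 tested, Cdkn1a apart) did not move one way. With the Irf8KO label 10 rose and 3 fell in Flt3- GPs, while 4 rose and 6 fell in Flt3+ GPs, with medians of 0.18 and 0.06. Pmaip1, the pro-apoptotic Noxa, was 2.77-fold higher in Irf8KO Flt3+ GPs (1.47 ± 0.045, adjusted p = 1.98e-05). In Irf8KO Flt3- GPs it was 1.36-fold higher (0.44 ± 0.045, adjusted p = 0.00113). Gadd45g, a growth arrest gene, was 2.83-fold higher in Irf8KO Flt3- GPs (adjusted p = 8.55e-05) and 1.18-fold higher in Irf8KO Flt3+ GPs (0.0315). Btg2, an antiproliferative gene, was 1.94-fold higher in Irf8KO Flt3- GPs (adjusted p = 0.000273) but lower with the label in Flt3+ GPs (-0.27 ± 0.058, adjusted p = 0.0194). Tigar, a p53 target that lowers glycolysis, was 2.99-fold lower in Flt3+ than Flt3- GPs of WT mice (adjusted p = 5.46e-06). Phlda3, a p53 target that restrains Akt, was higher in Flt3+ than Flt3- GPs, 5.76-fold in WT and 8.37-fold in Irf8KO (adjusted p = 9.79e-07 and 9.83e-07).

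Of 20 tested regulators of D cyclin and inhibitor transcription, 7 rose and 3 fell with the Irf8KO label in Flt3+ GPs, and 5 rose and 4 fell in Flt3- GPs. Notch1, the receptor whose signal induces Ccnd1 and Ccnd3 in some cells, was higher with the label by 0.91 ± 0.11 (SE) in Flt3+ and 0.99 ± 0.11 in Flt3- GPs (adjusted p = 0.00277 and 0.0014). The Notch target Hes1 was well above background in Irf8KO Flt3+ GPs alone, at least 1.97-fold higher than in WT Flt3+ GPs, taking the dim arrays at the lowest signal well above background. It was tested only because of that group, so no p is given, and it is 1 of the 7. Foxo1, a factor that raises Cdkn1b, was 0.78 ± 0.058 higher in Irf8KO Flt3- GPs (adjusted p = 0.000462) and 0.60 ± 0.058 higher in Irf8KO Flt3+ GPs (0.00129). Cebpe, the factor of granulocyte maturation, was 62.9-fold lower in Flt3+ than Flt3- GPs of WT mice and 56.7-fold lower in Irf8KO (adjusted p = 2.7e-07 and 6.82e-07).

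Of 15 proliferation genes, 9 rose and none fell with the Irf8KO label in Flt3+ GPs (median 0.32), while none rose and 13 fell in Flt3- GPs (median -0.43). With quantile normalization 9 rose and 3 fell in Flt3+ GPs, and 11 fell in Flt3- GPs. The difference between these differences was called for 14 of 15, all positive, and for 12 of 15, all positive, with quantile normalization. Aurka, a mitotic kinase, was 0.75 ± 0.051 (SE) higher in Irf8KO Flt3+ GPs (adjusted p = 0.000341). Rrm2 and Tk1, which supply DNA precursors in S phase, were 0.64 and 0.63 lower in Irf8KO Flt3- GPs (adjusted p = 0.000471 and 0.000533). The D cyclins and Cdk4 were also lower in that group. Whether the share of dividing cells has a part in their values was not tested, and in sorted bulk RNA fewer expressing cells and less RNA per cell cannot be told apart.

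**Figure D4:**
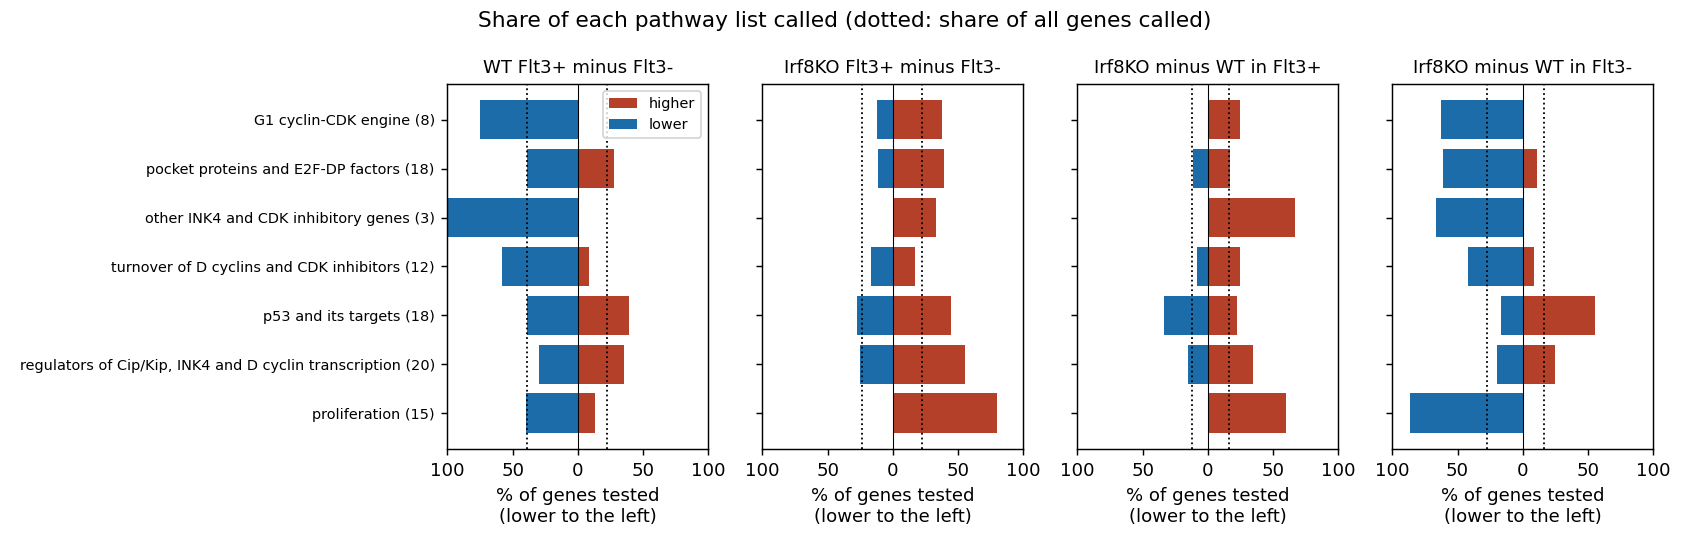
Share of the tested genes of each list called higher (right, red) or lower (left, blue) in the 4 pairwise comparisons, with the share of all genes called in each direction dotted. For proliferation genes, 9 of 15 were higher with the Irf8KO label in Flt3+ GPs and 13 of 15 lower in Flt3- GPs. With quantile normalization 3 of the 15 were lower with the label in Flt3+ GPs. Between WT populations 2 of 15 were higher and 6 lower in Flt3+ GPs, but 8 higher and 2 lower with quantile normalization.

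Markers of other cells also moved with the groups. Summed intensities, in multiples of the array's 75th percentile, are given as the range over a group's arrays. The 9 tested erythroid and megakaryocyte markers summed to 23.8 to 24.4 in WT Flt3+ and 11.5 to 11.6 in WT Flt3- GPs, against 2.90 to 2.92 and 3.23 to 3.33 in the Irf8KO groups. Between the WT populations, 4 of the 9 were called higher and 3 lower in Flt3+ GPs, where 22.6 and 39.2% of all genes were. With the Irf8KO label 8 of 9 were called lower in Flt3+ and 7 of 9 in Flt3- GPs, where 12.5 and 27.2% of all genes were. Ppbp was not well above background on any Irf8KO array and was tested only through WT GPs. It was not taken out of the 9 and may be among those called lower, so its test gives these counts no support. Klf1 was not well above background in Irf8KO Flt3- GPs. The 8 eosinophil, basophil and mast cell markers summed to 15.0 to 15.6 in WT Flt3+, 74.0 to 74.9 in WT Flt3-, 4.82 to 4.91 in Irf8KO Flt3+ and 28.5 to 29.1 in Irf8KO Flt3- GPs.

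With the Irf8KO label 5 mature neutrophil markers were called higher in both populations, where 16.5% of all genes were in Flt3+ and 16.5% in Flt3- GPs. Each of these 5 was well above background on at least 1 array of every group. The sixth, Mmp9, was not well above background in either WT group and was tested only through the Irf8KO groups. All 6 summed to 1.36 to 1.37 and 1.53 to 1.66 in WT Flt3+ and Flt3- GPs, and to 4.09 to 4.11 and 3.74 to 3.89 in Irf8KO. Monocyte markers (6) summed to 64.0 to 66.8 and 63.4 to 63.9 in WT, and 133 to 137 and 150 to 151 in Irf8KO. The 10 granulocyte progenitor markers summed to 900 to 979 in WT Flt3+, 2330 to 2470 in WT Flt3-, 1390 to 1400 in Irf8KO Flt3+ and 2650 to 2890 in Irf8KO Flt3- GPs. Of these 10, 7 were called higher and 2 lower with the Irf8KO label in Flt3+ GPs, and 5 higher and 3 lower in Flt3- GPs. The markers of this list did not all follow its sum. The 4 tested T and NK cell markers summed to 12.2 to 13.2 on Flt3+ arrays and 4.64 to 5.21 on Flt3- arrays. Of these 4, 3 were called higher and none lower in Flt3+ than Flt3- GPs of WT mice, where 22.6 and 39.2% of all genes were. Within Irf8KO only 1 was called higher and 1 was called lower (22.1 and 23.6% of all genes), so the sum does not speak for each marker. The 5 tested B cell markers summed to 12.6 to 19.4 over all arrays, highest in Irf8KO Flt3+ GPs, and the 5 tested dendritic cell markers to 197 to 258. The part of these cells in the values of the 10 genes was not tested.

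For the 3 genes with the widest range of group means, the genes with the nearest profiles over the 8 arrays were found by the root mean square distance between profiles, each centred on its own mean. Nearest to Ccnd1 were Pou2af1, a lymphoid transcription coactivator (0.20), Crip2 (0.29, well above background on 6 arrays) and St3gal5, a ganglioside synthase (0.31). Nearest to Cdkn1a were Hpse, heparanase (0.091), Jchain, the joining chain of antibodies (0.12), and Ctr9, a subunit of the PAF1 complex (0.14). Nearest to Cdkn1c were Zcchc12 (0.25, well above background on 4 arrays), Slc23a4 (0.28, on 6 arrays) and Chst3, a sulfotransferase (0.33). With 4 groups of 2 arrays, such likeness is mostly that of 4 group means and is given as a description.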

How the data were processed

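Total RNA of sorted Flt3+ and Flt3- GPs was labelled with Cy3 and put on 8 Agilent arrays, 1 colour each. The authors deposited linear spot intensities with 0 or 1 flags per spot, extracted with Agilent Feature Extraction 10.7.3.1 (protocol GE1_107_Sep09), per the file headers. The authors' deposited series table lay within 1% of these intensities times 1 factor per array (0.672 to 1.33) for 99.8 to 99.9% of probes. Judged from its values it was on a linear scale without centring, with column medians of 29.9, 28.7, 26.9, 28.0, 28.7, 27.1, 27.5 and 27.6. It served as an alternative.

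Control and outlier spots (93 to 178 per array) were left out, spots of a probe averaged, and log2 values taken relative to each array's 75th percentile. A probe was kept where both arrays of some group had it well above background. Probes were named by accession through RefSeq's mouse gene table (26762 probes, 20284 symbols). A gene was represented by its brightest probe, by the mean of the 8 arrays. limma 3.58.1 in R 4.3.3 fitted 1 mean per group over all arrays (4 residual and 1.76 prior degrees of freedom), with Benjamini-Hochberg adjustment. The number of arrays limits the precision. Nothing beyond the experiment number says which cells or animals the arrays of a group came from; p-values measure the spread between those arrays. All arrays lay on 1 slide, so slide could not be tested as a batch.

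Simulated data for the WT comparison had 200 of 14106 genes changed. The fit recovered 55% of genes changed by 0.5 and 81% of those changed by 1 on the log2 scale. In the real WT comparison 61.9% of genes were called, a far larger share, so these recoveries do not measure recovery there. Named were all 10 genes, Irf8 and Flt3, up to 2 called genes with the largest change per list and comparison (a selection of them is printed), and the nearest profiles. The genes and lists were chosen with earlier results of these data known. Alternatives were quantile normalization, normexp with an offset of 50 and no filter on dim probes. A stricter filter kept only probes well above background on all 8 arrays. Further alternatives were a mean over probes, a fit over probes and a fit of the compared groups alone. The last were an experiment block, the series table and leaving out each array. The mean spot signal and protein sequences were not used here.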

Additional observations from a re-analysis of the deposited data

Results flagged for a closer look

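The Irf8KO difference of 5 genes differed between Flt3+ and Flt3- GPs by the test of the difference itself (limma, adjusted over all genes). It was more positive in Flt3+ GPs by 1.88 for Ccnd1 (adjusted p = 0.000281), 0.59 for Ccnd3 (0.00345), 0.45 for Ccnd2 (0.0042), 0.33 for Cdkn1a (0.019) and 0.31 for Cdk4 (0.0148). For Ccnd1, Ccnd2, Ccnd3 and Cdk4 the Flt3- difference was the larger in size, and for Cdkn1a the Flt3+ difference was. The Cdk4 value was 0.08 with quantile normalization (adjusted p = 0.41), and its call was also lost in 4 of 8 omissions of 1 array. The Cdkn1a call was lost in 5 of 8 omissions and with no filter on dim probes (adjusted p = 0.0525). Ccnd3 and Ccnd2 were at 0.28 and 0.23 with quantile normalization, still called. With groups of 2 arrays, single arrays far from the rest of their group could not be looked for.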

How the results depend on the processing

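Of 840 values of the 10 genes under an alternative, 785 kept direction and call, 31 lost the call, 12 gained it and 12 turned direction, none of these called both times; except where stated, the cause was not tested. With quantile normalization the WT population difference turned to 0.09 for Ccnd3 and 0.29 for Cdk4, the Cdk4 genotype difference in Flt3+ GPs to -0.07 (-0.01 with normexp), and the Cdkn2d difference of genotype differences to -0.11. That Cdkn2d value was -0.05 without the WT Flt3+ array of experiment 1, 0.00 without the WT Flt3- array of experiment 2 and -0.03 without the Irf8KO Flt3+ array of experiment 2. For Cdkn1c it ran from -0.78 to 0.62 over the omissions, the last without the WT Flt3- array of experiment 1, and was 0.06 without the Irf8KO Flt3+ array and 0.19 without the Irf8KO Flt3- array of experiment 1. The Cdkn2d genotype difference in Flt3+ GPs was 0.00 without the WT Flt3+ array of experiment 2.

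All genes called between genotypes in Flt3+ GPs numbered 4087, 2678 with no filter on dim probes, 2664 with only these groups fitted, and 2002 to 3677 with 1 array left out (1 to 4 of the 10 genes). In Flt3- GPs the 6156 became 4053 to 6441 with 1 array left out. For the difference of differences, 4354 became 2724 with no filter and 2515 to 4415 with 1 array left out (3 to 6 of the 10 genes).

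Same-numbered arrays deviated together with r from -0.03 to 0.12 over 6 pairs of groups, and the labels do not say what else the arrays of an experiment shared. With the replicate block 0 of 50 values changed call or direction, and the counts of the 10 genes stayed at 7, 3, 6, 8 and 5; all genes called became 8782, 4009, 6201, 6551 and 4407. The series table changed no call of the 10 genes, and its Cdkn1a value within WT was 0.41 against 0.46. Every array in it has the same 75th percentile (426.2), so it nearly repeats the main scaling. Its likeness to the main fit was thus fixed beforehand and is no separate check, although its values are among the 840. Probes not well above background, among them Cdkn2a, Cdkn2b and the second Cdkn1a probe, give no level.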
